A study of Mus musculus with 18 samples.

Results

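The genes described are 10 members of the BCL2 family and its relatives, namely Bcl2, Bcl2l1, Mcl1, Bax, Bak1, Bbc3, Pmaip1, Bcl2l11, Bnip3, and Bnip3l, out of 34989 genes counted in the mouse heart. They were chosen by name, and the level of each gene is the sum of the estimated counts of all its transcripts. Proteins of this family decide whether the outer membrane of the mitochondrion stays closed. The survival proteins BCL2, BCL-XL (from Bcl2l1), and MCL1 hold the effectors BAX and BAK (from Bak1) in check. BH3-only proteins, among them PUMA (from Bbc3), NOXA (from Pmaip1), and BIM (from Bcl2l11), bind the survival proteins and can free or activate the effectors, after which cytochrome c leaves the mitochondrion and caspases are activated. BNIP3 and NIX (from Bnip3l) are related proteins of the outer membrane that bind the autophagy machinery and mark mitochondria for removal, and heart muscle, which is dense in mitochondria, carries both.

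Hearts of C57B/L6 mice (strain as the labels spell it), 12 weeks old per the labels, were infused with the preservation solution HTK (histidine-tryptophan-ketoglutarate) and kept in it on ice for 0, 4, or 8 h. Every heart, those with 0 h of storage included, was then perfused ex vivo with Krebs buffer for 1 h before the left ventricle (LV) and right ventricle (RV) were frozen, so that no unperfused heart serves as a control. The 18 RNA libraries comprised 3 of each ventricle at each time. The methods of the study give another age and state that both sexes were used, and the labels give no sex. The labels do not say that libraries of a group came from separate hearts, and p-values then measure only the spread between these samples.

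The libraries held between 22481883 and 46068147 estimated counts, and mitochondrial genes took 22.7% to 34.4% of them, with the 6 libraries of 8 h and RV replicate 3 of 0 h at 32.0% or more. The summed level of 6 cardiomyocyte markers in CPM (counts-per-million) was lower at 8 h without overlap. It was 38793 to 45536 against 52029 to 63323 at 0 h in LV and 26451 to 51623 against 54829 to 62918 in RV. Of the single markers in LV, Myh6 fell, 2 of 6 had a positive log2 fold change, and 1 was fully separated from 0 h. In RV all 6 had a negative value, but 0 passed the test and 0 were fully separated. The lowest sum was in RV replicate 3 after 8 h. None of the 6 neutrophil markers was at 0 in all libraries of a group, except 1 marker in LV at 0 h, and their summed level was 2.70 to 4.85 CPM at 0 h and 11.6 to 22.5 CPM at 8 h. Of the markers tested at 8 h, 3 of 5 for neutrophils and 2 of 4 for red blood cells rose in LV. In RV 1 of 3 for neutrophils, 2 of 5 for macrophages, and 1 of 5 for fibroblasts rose and 1 of 5 for smooth muscle and pericytes fell. Of all genes tested, 5.46% rose in LV, and 13% rose and 5.26% fell in RV. The part of these markers' cells in the members' changes after storage was not tested. The Y-linked gene Ddx3y was at 1.47 to 2.44 CPM in replicate 3 of every stored group and at 1.69 and 1.86 CPM in replicate 2 at 0 h, against 62.1 CPM or more in all other libraries. In whole tissue, fewer cells of a type and less RNA per cell cannot be told apart.

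Levels of different members were compared in transcripts-per-million (TPM), the scale per transcript length. Mcl1 had the highest median over the 18 libraries (129 TPM, range 81.6 to 199.9), followed by Bnip3 (114 TPM, range 41.1 to 180.2), and Mcl1 exceeded Bnip3 in 11 of 18 libraries, so that their order was not fixed. Bnip3l (40.7 TPM), Bax (24.8 TPM), and Bcl2l1 (16.5 TPM) came next by median. Bnip3 exceeded Bnip3l in 18 of 18 libraries and Bax exceeded Bcl2l1 in 18 of 18, whereas Bnip3l exceeded Bax in 16. Bcl2l11 (10.1 TPM) and Bak1 (7.37 TPM) changed places, with Bcl2l11 above Bak1 in 9 of 18 libraries. Bbc3 (5.05 TPM) exceeded Bcl2 in 18 of 18 libraries, and Bcl2 (1.17 TPM) and Pmaip1 (1.10 TPM) were the lowest and likewise changed places, with Bcl2 above Pmaip1 in 9 of 18. Among the survival genes, the order in every library was Mcl1, Bcl2l1, and Bcl2.

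**Figure D1:**
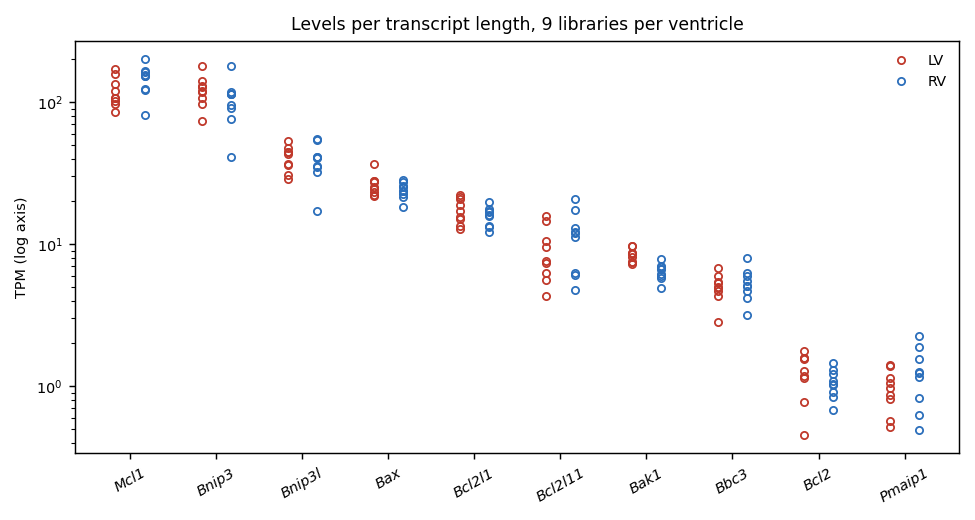
Level of each member in TPM (log axis) in the 9 libraries of LV (red) and the 9 libraries of RV (blue), with genes ordered by their median over the 18 libraries. Mcl1 and Bnip3 lie highest and overlap, Bcl2 and Pmaip1 lie lowest and overlap, and the points of Bcl2l11 spread from 4.35 to 20.9 TPM.

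Transcripts that do not code for the protein took different shares of these levels. Coding transcripts took 100% of the TPM of Bcl2, Mcl1, and Pmaip1 in every library. Their median share was 87.2% for Bcl2l11, 84.1% for Bbc3, 29.98% for Bak1, and 26.9% for Bnip3l. For Bak1 the rest was a transcript annotated as a target of nonsense-mediated decay (Bak1-201), and for Bnip3l it was mostly the processed transcript Bnip3l-205, so that TPM of these genes are not TPM of coding RNA. Of the estimated counts, on which the tests rest, the coding transcripts took a median of 33.6% for Bak1 and 72.0% for Bnip3l (64.6% to 75.0%). Bak1 also overlaps the gene Ggnbp1 on the opposite strand, and the methods of the study name default settings of the counting tool, which ignore strand, so that reads of this pair cannot be told apart where the genes overlap.

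All 10 members passed the filter on low counts in every fit. Between storage times, levels are given in CPM after TMM normalization, which scales the total of each library to offset differences in RNA composition. A gene was called when its Benjamini-Hochberg adjusted p in edgeR's quasi-likelihood test was under 0.1 and its fold change was over 1.5. In RV, 2 members were called after 4 h (Pmaip1 and Bcl2l11, both higher) and 3 after 8 h (Pmaip1, Bcl2l11, and Mcl1, all higher), where 10.1% and 18.2% of the 14622 genes tested were called and 6.17% and 13% were called higher. In LV, 0 members were called after 4 h and 1 after 8 h (Pmaip1, higher), where 2.79% and 6.72% of the 14564 genes tested were called and 5.46% were called higher at 8 h. At 4 h in LV, 3 of the 10 members had an unadjusted p under 0.05 (15.6% of all genes) and DESeq2 called 1, Bcl2l11, and 6.41% of all genes with an adjusted p. The median log2 fold change of the 10 members was 0.12 after 4 h and 0.29 after 8 h for LV (all genes tested: -0.0044 and -0.02). For RV it was 0.08 after 4 h and 0.18 after 8 h (all genes tested: 0.0034 and -0.07).

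The libraries of 0 h and of storage were fully separated for 3 higher members in LV after 4 h (12.9% of all genes), for 5 higher and 1 lower after 8 h (15.5% and 13.1%), for 3 higher and 2 lower in RV after 4 h (15.1% and 16.7%), and for 3 higher and 1 lower after 8 h (18.5% and 17%). The 3 BH3-only genes accounted for 3 of the 3 higher members in LV after 4 h and for 3 of the 5 after 8 h. In RV they accounted for 2 of the 3 at both times, with Bbc3 overlapping.

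**Figure D2:**
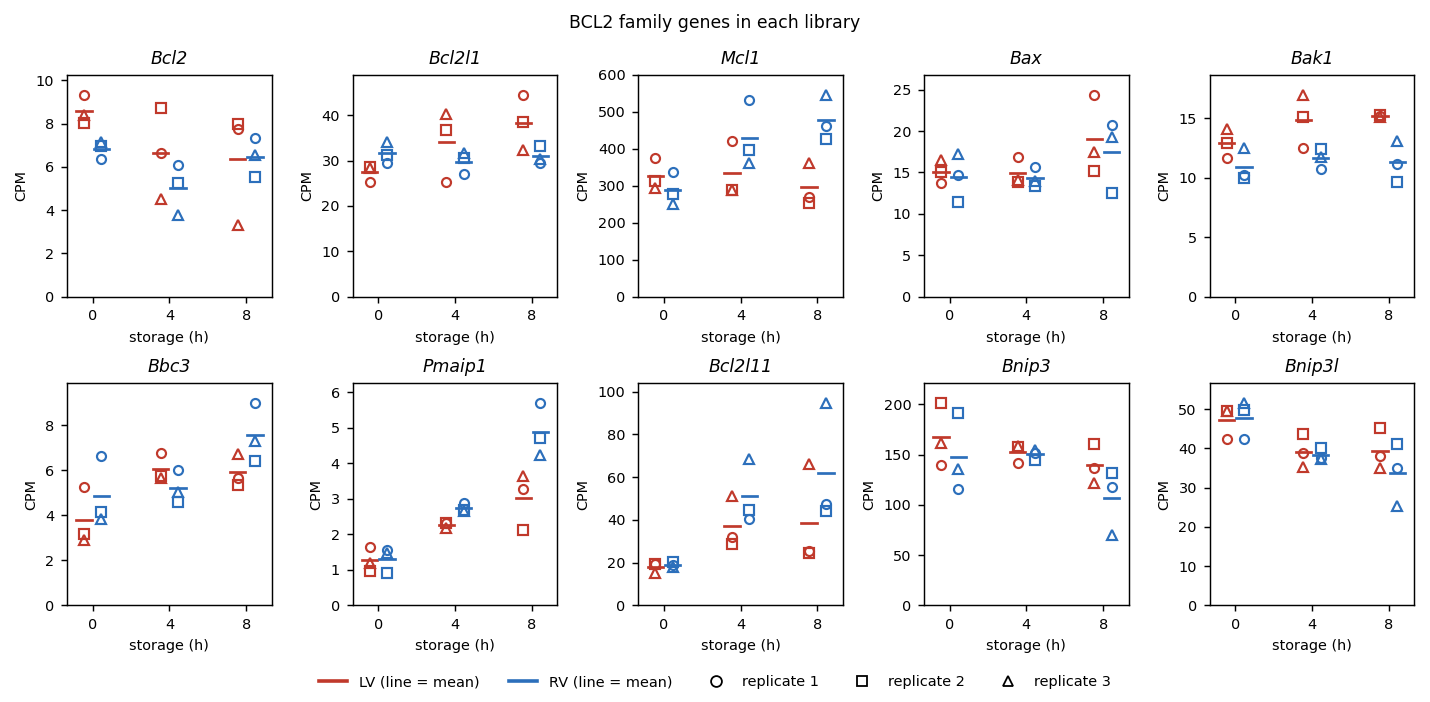
CPM of each member in every library by hours of storage, with LV in red and RV in blue, symbols for replicate numbers, and a line at the mean of the 3 libraries; each panel has its own linear axis from 0. Pmaip1 and Bcl2l11 lie above their 0 h libraries in all stored libraries of both ventricles, and Mcl1 does so in RV.

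Pmaip1, which encodes the BH3-only protein NOXA, a partner of MCL1 that promotes its degradation, had the largest fold change of the members in RV after 8 h. Its levels in RV were 1.55, 0.914, and 1.47 CPM at 0 h, 2.87, 2.68, and 2.67 CPM after 4 h, and 5.68, 4.71, and 4.22 CPM after 8 h. Every library of 8 h lay above every library of 4 h, and every library of 4 h above those of 0 h. Pmaip1 rose by a log2 fold change of 1.90 ± 0.24 (SE) after 8 h, a 3.72-fold change (adjusted p = 0.0023), and by 1.08 ± 0.24 after 4 h (adjusted p = 0.035). From 4 to 8 h the log2 difference was 0.82 (95% interval 0.30 to 1.34; unadjusted p = 0.0057), but no gene passed the adjusted test in that comparison (adjusted p = 0.60). In RV, the call at 8 h held when each of the 9 libraries was left out in turn. The call at 4 h was lost without replicate 2 or 3 of RV at 0 h (adjusted p = 0.13 and 0.11) or without replicate 1 of RV at 4 h (0.11).

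In LV, Pmaip1 was at 1.65, 0.979, and 1.18 CPM at 0 h, 2.33, 2.31, and 2.17 CPM after 4 h, and 3.27, 2.14, and 3.64 CPM after 8 h. All stored libraries lay above those of 0 h, and replicate 2 of 8 h lay below all 3 libraries of 4 h. The log2 fold change was 1.23 ± 0.27 after 8 h (adjusted p = 0.045) and 0.83 ± 0.27 after 4 h (adjusted p = 0.19). The call at 8 h was lost without LV replicate 2 or 3 of 0 h (adjusted p = 0.19 and 0.14) and without LV replicate 1 or 3 of 8 h (0.11 and 0.13). These levels rest on 27 to 170 estimated counts per library, the fewest of any member.

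Bcl2l11 encodes BIM, a BH3-only protein that binds all of the survival proteins and is known as a target of forkhead transcription factors of the FOXO group. The 250 bases before its first start in RefSeq are shown because they hold a match to the forkhead letters GTAAACA, which stand in capitals. The window lies at chr2:128125788-128126037 on the plus strand of GRCm38.p6 and ends where the GENCODE gene begins (chromosome 2, 128126038 to 128162547). Bbc3, a further BH3-only gene known as a FOXO target, has a match on the opposite strand, read as TGTTTAC, at 1 of its RefSeq starts, shown with its surroundings at chr7:16310083-16310112 on the plus strand, inside the gene (chromosome 7, 16308393 to 16318205) and between its GENCODE exons.
Bcl2l11: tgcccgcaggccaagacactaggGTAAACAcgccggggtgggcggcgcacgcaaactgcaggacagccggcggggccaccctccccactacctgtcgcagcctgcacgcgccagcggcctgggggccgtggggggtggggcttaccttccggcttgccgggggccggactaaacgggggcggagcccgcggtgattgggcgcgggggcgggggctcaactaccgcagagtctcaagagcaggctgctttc
Bbc3: tctggcgggttTGTTTACaaacaatggggt

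The first letter of the match lies 227 bases before the start for Bcl2l11 and 167 for Bbc3. On either strand, GTAAACA was found in 3.17% of 32851 RefSeq promoter windows of 250 bases. Among the 8 members searched, in 13 windows, it was found in these 2. Pmaip1 and Bnip3l were not searched. A match is a description of the letters and not evidence of binding. Of the FOXO genes themselves, Foxo1 rose in RV by a log2 fold change of 0.65 after 4 h (adjusted p = 0.053) and 0.81 after 8 h (adjusted p = 0.015), and Foxo3 had a value of -0.50 after 8 h (adjusted p = 0.30). In LV, where neither passed the test, Foxo1 had values of 0.57 after 4 h and 0.39 after 8 h (adjusted p = 0.12 and 0.17) and Foxo3 of 0.18 and -0.65 (adjusted p = 0.79 and 0.15).

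The levels of Bcl2l11 in RV were 19.1, 20.4, and 17.8 CPM at 0 h, 40.5, 44.5, and 68.5 CPM after 4 h, and 47.4, 44.3, and 94.5 CPM after 8 h. In LV they were 19.4, 19.3, and 15.4 CPM at 0 h, 32.1, 28.6, and 51.1 CPM after 4 h, and 25.5, 24.5, and 66.0 CPM after 8 h. No stored library of either ventricle overlapped with 0 h, and replicate 3 was the highest of all 4 stored groups, while at 0 h replicate 3 was the lowest in both ventricles. In RV, Bcl2l11 rose by a log2 fold change of 1.44 ± 0.33 after 4 h (adjusted p = 0.036) and of 1.73 ± 0.33 after 8 h (adjusted p = 0.011), a 3.31-fold change. The call at 4 h was lost without RV replicate 2 or 3 of 0 h (adjusted p = 0.14 and 0.16), and the call at 8 h held with each library left out.

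In LV the log2 fold changes of Bcl2l11 were 1.05 ± 0.38 after 4 h (adjusted p = 0.23) and 1.10 ± 0.38 after 8 h (adjusted p = 0.14). Without LV replicate 3 of 8 h, the log2 fold change at 8 h was 0.46. Replicate 3 of every stored group was also low in Ddx3y, and at 8 h it had the lowest cardiomyocyte sum of its group (38793 CPM in LV and 26451 CPM in RV), but not at 4 h (58238 and 57447 CPM). The part of these values in the level of Bcl2l11 was not tested. A single coding transcript, Bcl2l11-205, took 89.6% to 93.3% of the estimated counts of the gene on average in each of the 6 groups.

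Bbc3 encodes PUMA, a BH3-only protein known as a p53 target, and was not called in any comparison of storage times without a block. In LV it was at 5.27, 3.17, and 2.89 CPM at 0 h, 6.75, 5.72, and 5.66 CPM after 4 h, and 5.67, 5.32, and 6.70 CPM after 8 h, with no overlap of stored libraries and 0 h. The log2 fold changes were 0.67 ± 0.23 (adjusted p = 0.21) and 0.64 ± 0.23 (adjusted p = 0.15). In RV it was at 6.61, 4.16, and 3.82 CPM at 0 h, 6.01, 4.59, and 5.02 CPM after 4 h, and 8.96, 6.40, and 7.30 CPM after 8 h. The highest library of 0 h, replicate 1, lay above the lowest library of 8 h, replicate 2.

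In RV after 8 h, the log2 fold change of Bbc3 was 0.64 ± 0.24 (adjusted p = 0.11). With the replicate number as a block it was 0.67 and passed the test (adjusted p = 0.030), where 24.3% of all genes were called. Storage times were taken to have different hearts, so this block joins libraries of 0 and 8 h by number. Deviations of same-numbered RV libraries of 0 and 8 h correlated at 0.13 to 0.26, and the labels do not say what the number stands for. The RV library low in Ddx3y was replicate 2 at 0 h and replicate 3 at 8 h. The blocked call was lost without RV replicate 3 of 0 h (adjusted p = 0.11). Without a block, it passed the test when RV replicate 1 of 0 h or RV replicate 2 of 8 h was left out (log2 fold changes of 0.93 and 0.75, adjusted p = 0.037 and 0.070). In TPM, Bbc3 in LV was at 5.98, 5.45, and 2.84 at 0 h and at 4.66, 4.91, and 4.34 after 8 h, and in RV at 8.02, 4.20, and 3.18 and at 6.22, 5.99, and 5.04, so that on this scale the groups overlapped. With offsets for transcript length, the log2 fold change after 8 h was 0.28 in LV (adjusted p = 0.57) and 0.56 in RV (adjusted p = 0.20).

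Mcl1 (chromosome 3, 95658788 to 95663176, plus strand) encodes a short-lived survival protein that heart muscle depends on. In RV its levels were 338, 278, and 251 CPM at 0 h, 532, 397, and 361 CPM after 4 h, and 461, 428, and 546 CPM after 8 h. All 6 stored libraries lay above those of 0 h. Mcl1 rose in RV after 8 h by a log2 fold change of 0.74 ± 0.22 (adjusted p = 0.052), and the value after 4 h was 0.59 ± 0.22 (adjusted p = 0.15). The call at 8 h was lost without RV replicate 2 or 3 of 0 h (adjusted p = 0.17 for both).

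In LV, Mcl1 was at 375, 313, and 293 CPM at 0 h, 422, 289.6, and 289.7 CPM after 4 h, and 269, 255, and 362 CPM after 8 h. The groups of LV overlapped, and the log2 fold change was 0.03 ± 0.20 after 4 h (adjusted p = 0.97) and -0.14 ± 0.20 after 8 h (adjusted p = 0.69; 95% interval -0.59 to 0.31). On the TPM scale, which has no TMM scaling, Mcl1 in RV was at 164, 123, and 81.6 at 0 h and at 154, 152, and 152 after 8 h, and the groups overlapped. With offsets for transcript length in the count model, the log2 fold change in RV was 0.71 (adjusted p = 0.084).

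Bcl2l1, which encodes the survival protein BCL-XL, was at 25.3, 28.6, and 28.4 CPM in LV at 0 h and at 44.5, 38.4, and 32.2 CPM after 8 h, without overlap. The log2 fold change was 0.49 ± 0.18 (adjusted p = 0.16). In TPM the groups of LV overlapped, at 15.5, 17.1, and 15.1 at 0 h and at 22.1, 18.8, and 13.5 after 8 h. In RV, Bcl2l1 stayed between 27.0 and 34.0 CPM in all 9 libraries, and its log2 fold change after 8 h was -0.01 (95% interval -0.30 to 0.28).

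Bcl2 itself was low in both ventricles. It was at 9.34, 8.04, and 8.40 CPM in LV at 0 h, 6.65, 8.71, and 4.52 CPM after 4 h, and 7.77, 7.97, and 3.30 CPM after 8 h. Replicate 3 was the lowest of both stored groups of LV. No change of Bcl2 was called, with log2 fold changes after 8 h of -0.43 ± 0.33 in LV (adjusted p = 0.45) and -0.06 ± 0.20 in RV (adjusted p = 0.84).

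The effector genes were not called in any comparison of storage times. Bax was at 13.7, 15.1, and 16.5 CPM in LV at 0 h and at 24.4, 15.2, and 17.5 CPM after 8 h, and in RV at 14.7, 11.5, and 17.3 CPM and at 20.8, 12.5, and 19.3 CPM. Its groups overlapped in both ventricles, and its log2 fold change was 0.34 in LV (95% interval -0.07 to 0.75) and 0.29 in RV (-0.20 to 0.78). Bak1 was at 11.6, 13.0, and 14.1 CPM in LV at 0 h and at 15.2, 15.3, and 15.1 CPM after 8 h. All 3 stored libraries lay above those of 0 h in CPM, with a log2 fold change of 0.24 (95% interval -0.07 to 0.54, adjusted p = 0.31). In TPM the groups of LV overlapped, at 7.30, 8.64, and 8.58 at 0 h and at 8.60, 8.14, and 7.44 after 8 h. In RV, Bak1 was at 10.2, 9.95, and 12.5 CPM at 0 h and at 11.1, 9.65, and 13.1 CPM after 8 h, with overlap and a log2 fold change of 0.07 (-0.32 to 0.46).

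Bnip3 encodes a mitophagy receptor known as a target of hypoxia-inducible factors. The part of its promoter window that lies before the GENCODE gene (chromosome 7, 138890836 to 138909519) is shown because it holds the core letters of such sites, ACGTG, on both strands at once. They overlap as CACGTG, in capitals. The 237 bases run at chr7:138909520-138909756 on the minus strand of GRCm38.p6.
Bnip3: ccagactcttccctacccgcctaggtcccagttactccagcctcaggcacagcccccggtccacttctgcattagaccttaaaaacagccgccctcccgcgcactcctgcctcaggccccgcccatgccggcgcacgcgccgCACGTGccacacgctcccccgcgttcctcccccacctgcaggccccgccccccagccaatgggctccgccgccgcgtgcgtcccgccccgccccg

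ACGTG was found in 16.6% of the 32851 windows, and among the members also at starts of Bax and Bbc3. The remaining letters searched were TGACG of cyclic AMP response elements (17.8% of windows), found at starts of Bcl2 and Bbc3, TGANTCA of AP-1 (6.75%), and the interferon-stimulated response element (2.98%). The last pair had no match in the windows of the 8 members searched, which leave out Pmaip1 and Bnip3l. Bnip3 was at 139.6, 201, and 162 CPM in LV at 0 h and at 137, 161, and 121 CPM after 8 h, and in RV at 116, 191, and 136 CPM and at 118, 132, and 69.8 CPM. The lowest value was that of RV replicate 3, and the groups overlapped in CPM. The log2 fold changes after 8 h were -0.26 ± 0.16 in LV (adjusted p = 0.35) and -0.47 ± 0.25 in RV (adjusted p = 0.23). In TPM, which has no TMM scaling, Bnip3 was lower at 8 h without overlap in both ventricles. The share of all genes separated on the TPM scale was not counted, so this is a description of Bnip3 only. In LV it was at 131, 179, and 128 TPM at 0 h and at 97.1, 108, and 73.7 TPM after 8 h. In RV these values were 115, 180, and 95.2 TPM and 76.1, 90.9, and 41.1 TPM.

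Bnip3l, whose product NIX also clears mitochondria from maturing red cells, was at 42.5, 49.7, and 51.5 CPM in RV at 0 h, 37.7, 40.0, and 37.3 CPM after 4 h, and 34.9, 41.2, and 25.3 CPM after 8 h. All stored libraries lay below those of 0 h. The log2 fold change after 8 h was -0.49 ± 0.17 (adjusted p = 0.090), under the fold threshold, so that it was not called. Without RV replicate 2 of 8 h it was -0.66 and passed the test (adjusted p = 0.028). In LV it was -0.26 ± 0.13 (adjusted p = 0.29). The low values of both mitophagy receptors in RV replicate 3 after 8 h stood beside the lowest cardiomyocyte sum of the series, and the part of one in the other was not tested. The summed level of 5 red blood cell markers in LV was 4.51 to 6.21 CPM at 0 h and 11.9 to 196 CPM at 8 h. In RV it was 2.40 to 5.93 CPM and 3.96 to 52.3 CPM. At 8 h, replicate 1 had the highest sum in both ventricles. The part of red blood cell RNA in the level of Bnip3l was not tested.

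**Figure D3:**
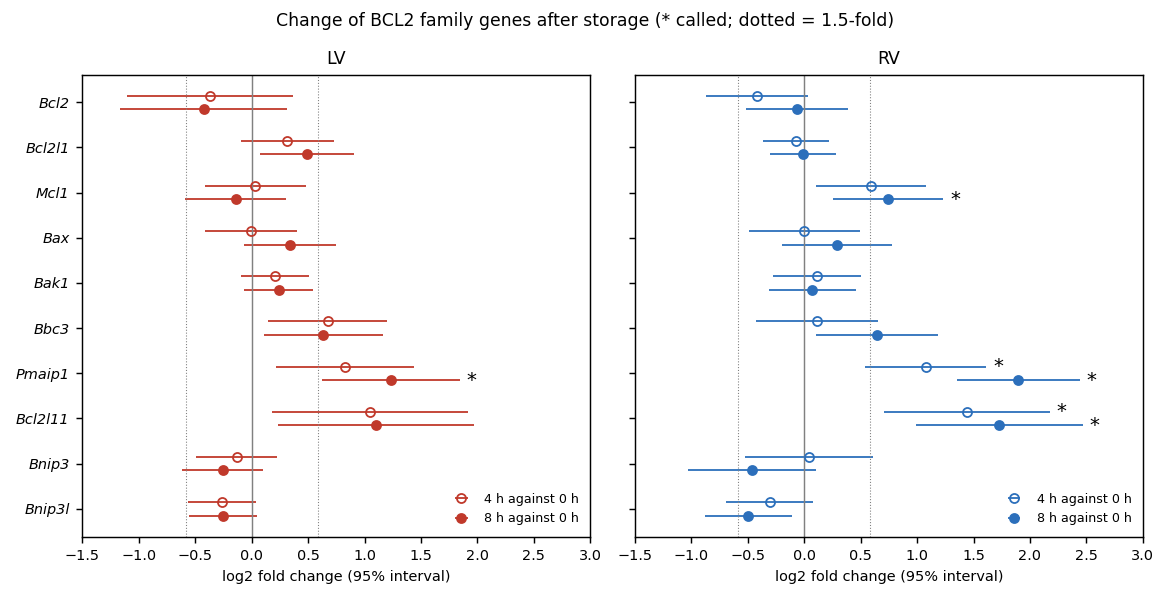
Log2 fold change of each member after 4 h (open) and 8 h (filled) against 0 h in LV (left) and RV (right), with 95% intervals, a star for called genes and dotted lines at a 1.5-fold change. Pmaip1 is called in RV at both times and in LV at 8 h, Bcl2l11 in RV at both times, and Mcl1 in RV at 8 h, while the intervals of Bax and Bak1 cross 0 in all 4 comparisons.

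From 4 to 8 h, edgeR called 0 members and 0% of all genes in either ventricle. DESeq2 called 0 of the 5 members it gave an adjusted p in LV (1.48% of such genes) and 0 of 10 in RV (0.357%). The number of members with an unadjusted p under 0.05 was 0 in LV (8.1% of all genes) and 1 in RV (Pmaip1; 6.57%). The libraries of RV were fully separated between 4 and 8 h for 2 higher members, Bbc3 and Pmaip1 (6% of all genes), and 1 lower, Bnip3 (5.57%).

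LV and RV were compared at each storage time in 1 model of all 18 libraries, without a block and with the heart as a block, where a heart was taken as the LV and RV library with the same storage time and number. Same-numbered libraries deviated together in all 9 pairs (lowest correlation of deviations 0.24), and the blocked values are therefore given. Without the block, edgeR called 0 members at 0, 4, and 8 h, where 0.159%, 0.0133%, and 0.0331% of 15093 genes were called. At 8 h, 3 members had an unadjusted p under 0.05 (Mcl1, Bak1, and Pmaip1; 11.1% of all genes) and DESeq2 called 1, Mcl1, and 1.33% of all genes with an adjusted p. At 4 h, 1 member had such a p (Bak1; 2.96%), at 0 h none did (3.21%), and DESeq2 called 0 at both times (0.166% and 0.412%). With the heart as a block, 0 members were called at 0 and 4 h (1.85% and 1.93% of all genes) and 3 were lower in LV at 8 h (Mcl1, Bcl2l11, and Pmaip1), where 8.78% of all genes were called and 6.53% were called lower. In the same blocked fit at 8 h, red blood cell markers were higher in LV for 3 of 5, neutrophil markers higher for 2 and lower for 2 of 5, and 1 marker each of fibroblasts, of macrophages, and of T and B cells was lower, while 0 of 6 cardiomyocyte markers were called. Their part in the members' differences was not tested.

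Within hearts, the log2 level of Mcl1 in LV minus that in RV was 0.15, 0.18, and 0.22 at 0 h, -0.33, -0.46, and -0.32 after 4 h, and -0.77, -0.75, and -0.59 after 8 h. In CPM, all 3 hearts of 0 h had more Mcl1 RNA in LV, all 6 stored hearts had more in RV, and the 3 groups did not overlap. The share of all genes with such patterns within hearts was not counted, here or for Bcl2l11 and Bak1 below. In TPM, replicate 1 of 0 h had less in LV (157.8) than in RV (164.2). Replicates 2 and 3 of 0 h had more in LV (134.7 against 123.3 and 107.8 against 81.6). All 6 stored hearts had more in RV on this scale too. With the heart as a block, Mcl1 was lower in LV at 8 h by a log2 difference of -0.70 (adjusted p = 0.00037). At 4 h the difference was -0.37 (adjusted p = 0.037), under the fold threshold.

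For Bcl2l11, LV minus RV was 0.02, -0.08, and -0.21 at 0 h, -0.33, -0.64, and -0.42 after 4 h, and -0.89, -0.85, and -0.52 after 8 h. All 6 stored hearts had more Bcl2l11 RNA in RV, and replicate 3, which had the highest levels in both ventricles, had the smallest difference at 8 h. The blocked difference was -0.75 at 8 h (adjusted p = 0.00043), and without the block the same difference was -0.69 (adjusted p = 0.51).

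For Pmaip1, LV minus RV at 8 h was -0.80, -1.14, and -0.21, and its blocked difference was -0.72 (adjusted p = 0.014). When each of the 9 hearts was left out, Mcl1 and Bcl2l11 were called lower in LV at 8 h in 9 of 9 fits and Pmaip1 in 8 of 9, the exception being replicate 2 of 8 h, without which its difference was -0.51, under the fold threshold. The Bak1 difference was positive in all 9 hearts, from 0.17 to 0.66, and the blocked value at 8 h was 0.43 (adjusted p = 0.010), under the fold threshold, as were those of Bnip3 (0.43, adjusted p = 0.016), Bnip3l (0.24, adjusted p = 0.047), Bcl2l1 (0.30, adjusted p = 0.061), and Bbc3 (-0.36, adjusted p = 0.039). With the block at 8 h, 32% of all genes had an adjusted p under 0.1.

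**Figure D4:**
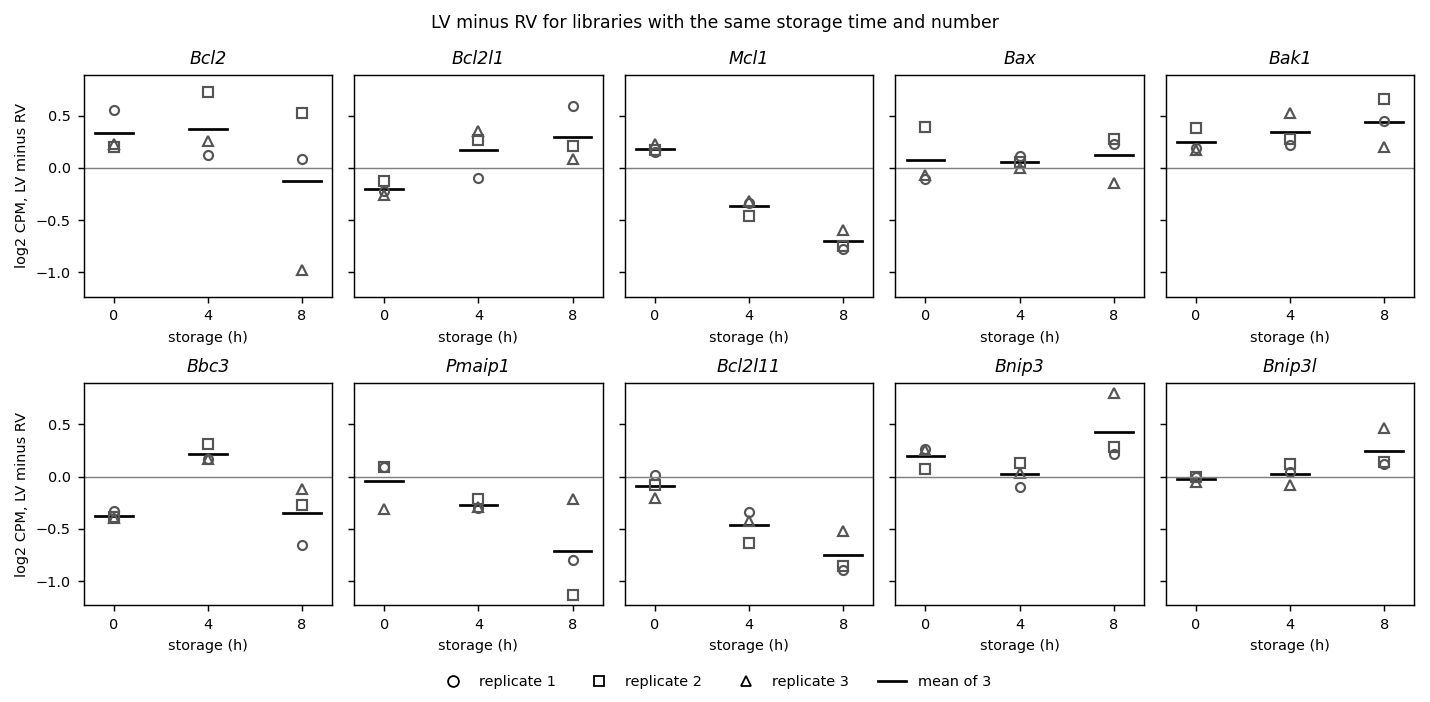
Log2 CPM of LV minus RV for each pair of libraries of 1 heart, by hours of storage, with a black line at the mean of the 3 pairs and a grey line at 0. The points of Mcl1 lie above 0 at 0 h and below it at 4 and 8 h, those of Bcl2l11 lie below 0 at 4 and 8 h, and those of Bak1 lie above 0 throughout.

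Whether a change with storage differed between the ventricles was tested as an interaction. Without a block, edgeR and DESeq2 called 0 members for the change from 0 to 8 h and 0 for the change from 0 to 4 h (edgeR 0% of all genes for both, DESeq2 0.0133% and 0%). For the former, 2 members (Mcl1 and Bcl2l1) had an unadjusted p under 0.05 (4.16% of all genes), and for the latter 0 had (1.05%). With the heart as a block, 0 members were called for the change from 0 to 4 h (0.305% of all genes) and 2 for the change from 0 to 8 h, where 5.71% of all genes were called and 4.72% were called lower. The change of Mcl1 was smaller in LV than in RV by a log2 difference of -0.89 (95% interval -1.13 to -0.64; adjusted p = 0.0016), and that of Bcl2l11 by -0.66 (-0.94 to -0.39; adjusted p = 0.011). In the 9 fits with 1 heart left out, these values ranged from -0.95 to -0.86 and from -0.79 to -0.60, and both genes were called in 9 of 9. For Pmaip1 the blocked difference was -0.68 (adjusted p = 0.16), so that its larger change in RV was not separated from that in LV. For Bcl2l1 it was 0.50 (adjusted p = 0.067), under the fold threshold.

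Other genes of these pathways were described by lists. Of 4 further survival relatives tested, 3 rose in RV after 8 h and 2 in LV, beside 13% and 5.46% of all genes. All of them were Bcl2a1 paralogs, which encode A1 and are known from blood cells. In RV the log2 fold changes were 2.60 for Bcl2a1a (adjusted p = 0.037), 1.75 for Bcl2a1b (adjusted p = 0.024), and 1.55 for Bcl2a1d (adjusted p = 0.048). These paralogs are nearly identical in sequence, so that the division of reads between them is uncertain, and the summed level of the 6 neutrophil markers in RV was 3.08 to 4.85 CPM at 0 h and 14.8 to 22.5 CPM at 8 h. The part of neutrophil RNA in their levels was not tested. Of 6 further pro-death relatives tested, edgeR called 0 at 8 h in either ventricle, and 2 in RV and 1 in LV had an unadjusted p under 0.05, beside 30.8% and 23.3% of all genes. After 4 h in RV, where 3.91% of all genes were called lower, 2 of them fell, Hrk by 1.56 and Bik by 1.08 on the log2 scale (adjusted p = 0.043 and 0.052). Of 3 further relatives, Bcl2l12 fell in RV after 8 h by 0.83 on the log2 scale (adjusted p = 0.027), beside 5.26% of all genes.

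Downstream of the mitochondrion, 5 of 16 apoptosome and caspase genes rose and 2 fell in RV after 8 h, beside 13% and 5.26% of all genes, and 2 rose in LV, beside 5.46%. Apaf1, which assembles the apoptosome with cytochrome c, rose by a log2 fold change of 2.68 in RV (adjusted p = 0.0029) and 2.02 in LV (adjusted p = 0.026). Birc3, which encodes an inhibitor of apoptosis protein, rose by 3.10 in RV (adjusted p = 0.0036) and 2.25 in LV (adjusted p = 0.028). Casp9, the caspase that APAF1 activates, fell in RV by 1.14 on the log2 scale (adjusted p = 0.035).

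Of 16 p53 and stress regulators, 5 rose in RV after 8 h and none fell, beside 13% and 5.26% of all genes. In LV edgeR called 0, beside 6.72% of all genes, and 5 had an unadjusted p under 0.05, beside 23.3%. Cdkn1a, a p53 target that arrests the cell cycle, had a log2 fold change of 2.998 in RV (adjusted p = 0.014). Atf4, a factor of the integrated stress response, had 1.51 (adjusted p = 0.014), and Sesn2, a stress-induced gene, had 1.73 (adjusted p = 0.014).

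Of 12 genes of death receptors and necroptosis, 8 rose and 1 fell in RV after 8 h, beside 13% and 5.26% of all genes. In LV 4 rose, beside 5.46%. The receptor gene Fas rose by a log2 fold change of 2.35 in RV (adjusted p = 0.0058) and 2.01 in LV (adjusted p = 0.037). Ripk1, a kinase at the branch between survival and necroptosis, rose by 2.37 in RV (adjusted p = 0.0028) and 1.33 in LV (adjusted p = 0.066). Tnfrsf1a, a TNF receptor, rose by 1.40 in RV (adjusted p = 0.0085), and Cflar, which restrains caspase 8, rose by 2.14 (adjusted p = 0.011). The list medians in RV were 1.76 for death receptors and necroptosis, 0.59 for p53 and stress regulators, and -0.15 for apoptosome and caspase genes, beside -0.07 over all genes.

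At 8 h, edgeR called 0 of 14 mitophagy genes and 0 of 11 genes of mitochondrial dynamics and channels in either ventricle. It called 6.72% of all genes in LV and 18.2% in RV. Of the mitophagy genes, 1 in each ventricle had an unadjusted p under 0.05. Of the dynamics and channel genes, 2 in LV and 1 in RV had such a p, beside 23.3% and 30.8% of all genes. After 4 h in RV, 2 of the mitophagy genes rose, beside 6.17% of all genes. The one with the smaller adjusted p at 8 h was the receptor gene Sqstm1. It had log2 values of 0.79 at 4 h (adjusted p = 0.050) and 0.56 at 8 h (adjusted p = 0.092, under the fold threshold).

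**Figure D5:**
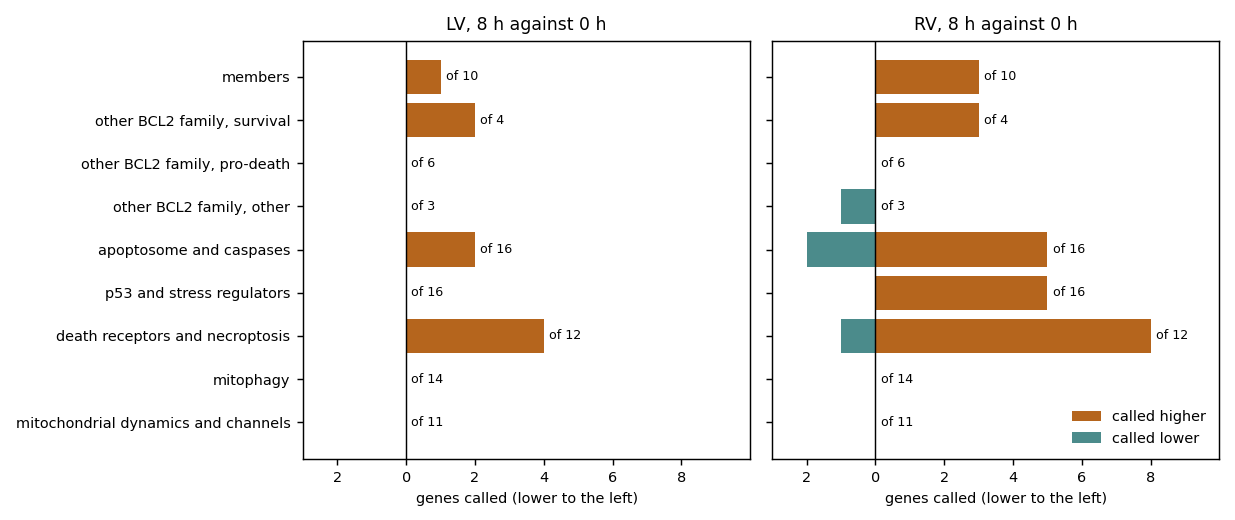
Number of genes called higher (right of 0) and lower (left of 0) after 8 h against 0 h in LV and RV, for the 10 members and 8 lists of related genes, with the number tested beside each bar. In RV 3 of 10 members and 8 of 12 genes of death receptors and necroptosis are called higher, beside 13% of all genes. No gene of the mitophagy or mitochondrial dynamics lists is called.

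The genes most like the called members were found by Pearson correlation of log2 CPM over the 18 libraries, among genes with a mean of at least 10 CPM, as a description, since the libraries share storage groups and pairs. For Mcl1 they were Coq10b (r = 0.95), Fbxo34 (0.94), and Zfp948 (0.94). For Pmaip1 they were Ccl9 (r = 0.96), Enc1 (0.95), and Plat (0.94). Bcl2l11 had Med13l (r = 0.98), Elf1 (0.98), and Cflar (0.97). Among the members, the highest correlation was between Bbc3 and Pmaip1 (r = 0.80) and the lowest between Bcl2l11 and Bnip3l (r = -0.87).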

How the data were processed

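The authors quantified the reads against the mouse genome build GRCm38 with Kallisto at default parameters and deposited, for each of the 18 libraries, the estimated counts, the TPM, and the effective length of every transcript. Strand was thus not used in counting. The deposited estimated counts of 110203 transcripts were summed to 34989 genes with GENCODE M21 names and rounded to whole numbers, and 1259 of 111462 transcripts without a name in that annotation, with 0.310% to 0.383% of the counts of a library, were left out. The deposited TPM were summed per gene in the same way. They were used to order genes by level, to give transcript shares, and to weight transcript lengths for the length offsets. For Bbc3, Mcl1, Bcl2l1, Bak1, and Bnip3 they also served to compare groups on a scale other than CPM.

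Counts were filtered with filterByExpr and TMM-scaled, and edgeR 4.0.16 (limma 3.58.1, R 4.3.3) fitted quasi-likelihood models, with 1 fit of the 9 libraries of each ventricle for storage times and 1 fit of the 18 libraries for LV against RV and the interaction. The p-values were adjusted by Benjamini-Hochberg over all genes tested. CPM use TMM-scaled totals. The tests were tested on simulated data before use. DESeq2 1.42.0, other size factors, no filter, length offsets, a replicate block, a stricter adjusted p, and leaving out each library were tried as alternatives, and leaving out libraries under the block was added after the data were seen. Tables and figures were made with Python 3.11.15, pandas 2.3.3, numpy 2.4.6, and matplotlib 3.10.9. Promoter sequences are from RefSeq on GRCm38.p6, and windows of 8 of the 10 members were searched. Pmaip1 and Bnip3l were not searched.

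The members and lists were chosen with earlier results of these data known. All 10 members are named, and of each list at most 4 genes, those with the smallest adjusted p after 8 h, plus genes called at 4 h only where a list had such calls. A further gene that this rule names is not reported here. Foxo1 and Foxo3 were named for the promoter match, after their values were seen. The labels number the libraries of each group 1 to 3. LV and RV libraries with the same time and number deviated together (correlation of 0.24 or more in all 9 pairs, mean 0.46), and each of the 18 libraries correlated best with its own number, so the number was taken as the heart. Across storage times, same-numbered RV libraries also correlated by more than 0.1 in every pair (lowest 0.10). Same-numbered LV libraries correlated at 0.29 to 0.51 between 4 and 8 h, at 0.030 to 0.24 between 0 and 4 h, and at -0.015 to 0.095 between 0 and 8 h.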

Additional observations from a re-analysis of the deposited data

Results flagged for a closer look

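Among the members, 2 results were marked for a closer look because the change with storage differed between the ventricles by a test of that difference with the heart as a block. The change of Mcl1 from 0 to 8 h was smaller in LV than in RV by -0.89 on the log2 scale (adjusted p = 0.0016, edgeR). In log2 CPM, LV minus RV was at 0.15 to 0.22 in the 3 hearts of 0 h and at -0.77 to -0.59 in the 3 hearts of 8 h. In TPM, replicate 1 of 0 h had less Mcl1 in LV (157.8) than in RV (164.2). The change of Bcl2l11 was smaller in LV by -0.66 (adjusted p = 0.011), with LV minus RV at -0.21 to 0.02 and at -0.89 to -0.52. Without the block, the same differences were -0.87 and -0.60 and neither passed the test.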

How the results depend on the processing

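The number of members called changed by more than 1.5 times under few settings. For LV after 4 h it was 0, and 1 with DESeq2. For LV after 8 h it was 1, and 2 with DESeq2 or with length offsets, the added gene being Bcl2l11 (adjusted p = 0.040 and 0.088), where 10.4% and 6.1% of all genes were called. With the replicate number as a block it was 2 there, the added gene being Bbc3 (adjusted p = 0.092; 10.6% of all genes called), but same-numbered LV libraries of 0 and 8 h did not all deviate together (lowest correlation -0.015), so they share only a number. For LV against RV at 8 h it was 0, with DESeq2 1 and with the heart as a block 3, and for the difference in change from 0 to 8 h it was 0, and 2 with the block. In RV, DESeq2 called 3 members after 4 h and 4 after 8 h, against 2 and 3 with edgeR. It called 13.6% and 20.9% of genes with an adjusted p. At the stricter adjusted p of 0.05, Mcl1 in RV after 8 h (adjusted p = 0.052, edgeR) was not called. The block added only Bbc3 in RV after 8 h (4 members, 24.3% of all genes called) and ended no call in RV. In RV too, libraries of 0 and 8 h with 1 number were taken as different hearts, but their deviations correlated at 0.13 to 0.26. The causes were not tested. No direction of a called value reversed.

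Leaving out 1 library at a time gave 0 to 1 members for LV after 4 h, 0 to 2 for LV after 8 h, 0 to 2 for RV after 4 h, 2 to 5 for RV after 8 h, 0 to 2 for LV against RV at 8 h, and 0 in the remaining comparisons. Under the block these ranges were 0 to 3, 0 to 2, 1 to 2, 2 to 5, 2 to 3, and 2 to 4 for the difference in change from 0 to 8 h. The share of all genes called was not counted in the fits with a library or heart left out. The ranges therefore cannot be set against the rest of the genes. With 3 libraries a group, the standard errors of the low members Bcl2, Bbc3, and Pmaip1 in RV after 8 h (0.20 to 0.24) were near those of the abundant Mcl1 (0.22) and Bnip3 (0.25).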
